A study of Mus musculus with 17 samples.

Results

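The interleukin-6 (IL-6) family was followed from its ligands to its feedback inhibitor in cardiac fibroblasts (CFs) of the infarcted mouse heart, by 10 genes of the 31053 in the count table. They were taken by name, without a threshold on their levels. The ligands were *Il6*, *Lif*, *Il11* and *Clcf1*. The receptor chains were *Il6st*, *Osmr*, *Lifr* and *Il11ra1*. *Stat3* stood for the transcription factor at the end of the pathway, and *Socs3* for its feedback inhibitor.

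Myocardial infarction (MI) was made by ligation of the left anterior descending coronary artery in C57BL/6 mice of 8 to 10 weeks that carry a GFP reporter driven by collagen I promoter sequence (Collagen1a1-GFP+). GFP+/CD31-/CD45- CFs were sorted from digested hearts on each of 6 days post infarction (dpi) and profiled in bulk by MARS-seq, in which reads mark the 3' end of each polyadenylated RNA. There were 3 libraries at each of 1, 2, 4 and 6 dpi, 4 at 3 dpi and 1 at 5 dpi, 17 in all, each with between 8021815 and 22029938 counts. Every library came from an infarcted heart of the same genotype, so all comparisons are between days, and uninfarcted hearts were not analysed here.

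In this pathway a secreted ligand binds its own receptor chain, which joins the shared signalling chain gp130, the product of *Il6st*. Janus kinases on the receptor then phosphorylate STAT3, which enters the nucleus and switches on target genes. One of these is *Socs3*, whose product binds gp130 and the kinases and ends the signal. IL-6, LIF and IL-11 are released by injured and inflamed connective tissue, and IL-11 is known as an autocrine factor of fibroblasts.

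Upstream sequence of 4 members is shown because these genes hold motifs of factors linked to the pathway or to its induction. RefSeq windows from 250 bases before to 50 bases after each annotated start (GRCm38.p6) were held for 9 of the 10 members, in 12 windows. *Clcf1* was not among them. Both strands were searched for the STAT motif TTCNNNGAA, the AP-1 motif TGANTCA, the CRE motif TGACGTCA and a degenerate NF-kB motif. Capitals mark the matches, and each sequence runs 5' to 3' on the strand of its gene and stops before the next annotated exon downstream.

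*Il6*, chr5:30012864-30013113, plus strand, upstream of the gene, with an AP-1 and an NF-kB motif:
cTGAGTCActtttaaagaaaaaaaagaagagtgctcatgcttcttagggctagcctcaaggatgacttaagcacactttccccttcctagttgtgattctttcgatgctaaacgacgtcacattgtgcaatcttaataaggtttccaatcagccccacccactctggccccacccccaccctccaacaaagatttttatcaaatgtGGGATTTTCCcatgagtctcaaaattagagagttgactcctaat
*Lif*, chr11:4257318-4257556, plus strand, upstream of the gene, with an AP-1 motif:
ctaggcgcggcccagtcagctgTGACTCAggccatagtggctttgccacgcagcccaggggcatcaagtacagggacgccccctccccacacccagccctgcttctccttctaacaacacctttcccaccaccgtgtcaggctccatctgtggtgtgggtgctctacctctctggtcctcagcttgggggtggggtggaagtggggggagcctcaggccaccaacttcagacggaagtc
*Il11*, chr7:4778142-4778391, minus strand, before one of its annotated starts and inside an intron of its longer transcripts, with an AP-1 motif:
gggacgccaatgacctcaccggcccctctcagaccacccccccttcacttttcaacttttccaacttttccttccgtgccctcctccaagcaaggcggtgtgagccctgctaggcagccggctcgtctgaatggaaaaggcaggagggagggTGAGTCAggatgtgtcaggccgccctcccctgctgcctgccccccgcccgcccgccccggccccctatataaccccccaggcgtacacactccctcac
*Socs3*, chr11:117969452-117969616, minus strand, inside an intron of a longer noncoding *Socs3* transcript, with a STAT motif:
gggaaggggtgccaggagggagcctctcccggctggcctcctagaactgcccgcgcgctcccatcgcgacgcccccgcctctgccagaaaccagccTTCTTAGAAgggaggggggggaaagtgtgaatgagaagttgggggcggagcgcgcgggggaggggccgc

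Counted from the RefSeq start, the AP-1 motif began at base -249 in *Il6*, -228 in *Lif* and -98 in *Il11*, and another lay at base 4 of *Osmr*, inside its first exon. The NF-kB motif of *Il6* began at base -44, and the STAT motif of *Socs3* at base -154. No member window held the CRE motif, and no match overlapped another. Of all 32851 windows, 7.81% held an AP-1, 8.3% a STAT, 4.51% an NF-kB and 1.79% a CRE motif. A match is a run of letters and not a measured binding site.

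The transcripts of the members were also searched for AU-rich words. AUUUA words, known from short-lived cytokine mRNAs and written ATTTA in the DNA alphabet, occurred at 5.13 per kb in the longest coding transcript of *Il11* and at 4.27 in that of *Il6*. Of 21901 coding genes, 99.6% had fewer per kb than *Il11* and 99.0% fewer than *Il6*, against a median of 0.82. The other members had 2.17 (*Clcf1*), 1.74 (*Lif*), 1.57 (*Socs3*), 1.35 (*Lifr*), 1.15 (*Il6st*), 1.09 (*Osmr*), 0.5 (*Stat3*) and 0 (*Il11ra1*). The longer word TTATTTATT, found in 8.0% of genes, occurred 5 times in *Il11* and 2 times in each of *Lif* and *Clcf1*, and in no other member, *Il6* included.

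All 10 members passed the filter on low counts, with the lowest count of any member, 7, in *Lifr*. Levels are given as CPM, counts scaled to a common library size with TMM factors, and day means as log2 CPM ± SD. A gene was called where the Benjamini-Hochberg adjusted p of edgeR's quasi-likelihood test over all 14030 tested genes was under 0.05. Over the whole time course 5 of the 10 members were called, where 15.0% of all tested genes were. These were *Lif* (adjusted p = 0.00027), *Il11* (0.0025), *Clcf1* (0.013), *Lifr* (0.021) and *Osmr* (0.031). The remaining members gave adjusted p-values of 0.1 for *Socs3*, 0.11 for *Il6*, 0.18 for *Il6st*, 0.25 for *Stat3* and 0.72 for *Il11ra1*. In bulk RNA, fewer cells that carry a transcript and less of it per cell cannot be told apart.

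**Figure D1:**
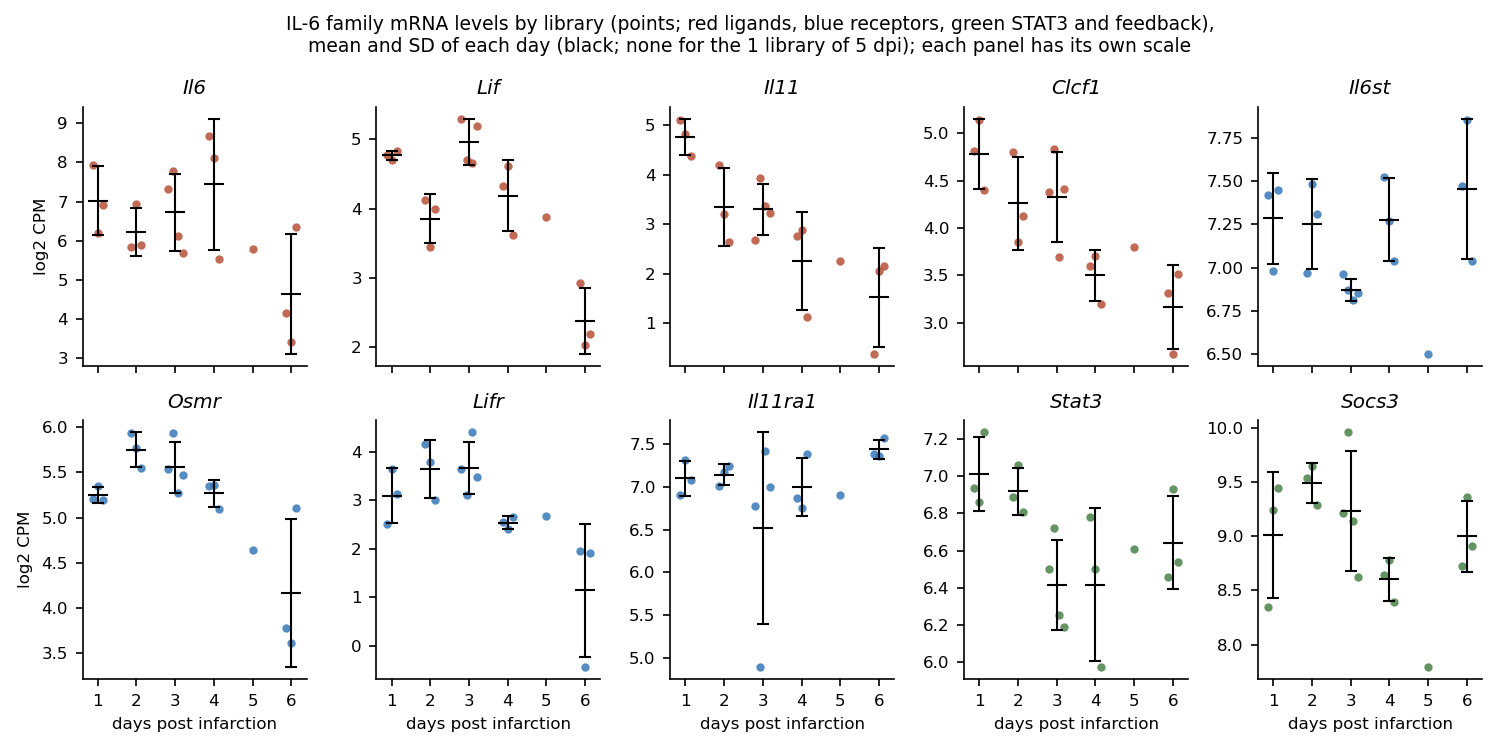
Level of each member in each of the 17 libraries (points, log2 CPM, each panel on its own scale) against days post infarction, with the day mean and SD in black. *Lif*, *Il11* and *Clcf1* end lower at 6 dpi than they began, whereas *Il6st*, *Stat3* and *Socs3* at 6 dpi overlap 1 dpi.

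Several facts of the libraries stand beside these levels. Fibroblast markers (*Col1a1*, *Col1a2*, *Col3a1*, *Pdgfra*, *Dcn*, *Lum* and *Tcf21*) summed to between 12300 and 18000 CPM at 1 dpi, between 24400 and 38000 CPM at 3 dpi and between 21300 and 31500 CPM at 6 dpi. The 5 mural cell markers summed to between 20.8 and 53.9 CPM at 1 dpi and between 85.3 and 96.6 CPM at 6 dpi. The 8 macrophage and leukocyte markers summed to at most 182 CPM, with their highest sums in 3 dpi replicates 3 and 4, and *Ptprc*, the gene of CD45, was at 0 in 12 libraries. The 5 cardiomyocyte markers summed to between 13.4 and 32.1 CPM at 1 dpi and between 67.6 and 155 CPM at 6 dpi. *Xist* counts exceeded those of 4 Y-linked genes in 1 dpi replicate 1 and in all libraries of 4 and 6 dpi, and the reverse held in the other 10 libraries. From 3 to 4 dpi this sex-linked pattern thus changed in every library, and there day and pattern cannot be told apart. In counts over genes, 3 dpi replicate 2 and 4 dpi replicate 3 stood apart from the other libraries of their day. Their pairs had a chi-square of 105 to 229.7 for each degree of freedom, against 23.0 to 38.6 between the others of those days. At 6 dpi the pairs with replicate 3 had 95.2 and 121, against 52.1 for the other pair. In the deposited counts the names of the 3 dpi libraries have another form than those of all other days. What this reflects is not stated. Changes into or out of 3 dpi therefore cannot be told apart from any difference that goes with the names.

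*Il6* encodes the cytokine that gave the family its name, and its SD between libraries of the same day was 1.2 on the log2 scale, against 0.38 for *Lif*, 0.77 for *Il11* and 0.42 for *Clcf1*. It measured 245, 72.7 and 121 CPM in the 3 libraries of 1 dpi, and 57.5, 123 and 59.6 CPM at 2 dpi. At 3 dpi the 4 libraries gave 160, 218, 69.4 and 51.6 CPM. The days overlapped up to here, and the highest levels came next. At 4 dpi *Il6* measured 404, 279 and 46.1 CPM, the third value being below every library of 1 to 3 dpi. The 5 dpi library gave 55 CPM, and those of 6 dpi gave 17.7, 10.5 and 81.8 CPM.

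The *Il6* day mean was 7.44 ± 1.67 log2 CPM (SD, n = 3) at 4 dpi and 4.64 ± 1.53 (n = 3) at 6 dpi, a fitted log2 change of -2.73 (SE 0.76). This did not pass the test (adjusted p = 0.084), with 6 dpi replicate 3 above 4 dpi replicate 3, and did in DESeq2 (adjusted p = 0.035). Without 6 dpi replicate 3 the change was -4.1 (edgeR adjusted p = 0.0076), and without 4 dpi replicate 3 it was -3.19 (adjusted p = 0.036). Between 1 and 6 dpi the log2 change was -1.99 (SE 0.74, adjusted p = 0.084), and -3.37 without 6 dpi replicate 3 (adjusted p = 0.0082). In 6 dpi replicate 3, where *Il6* and *Osmr* were high for their day, *Lif* and *Il11* measured 4.38 and 4.3 CPM, each close to another library of that day.

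*Lif* encodes leukemia inhibitory factor, which signals through LIFR and gp130, and its day means were highest at 1 and 3 dpi. Its libraries lay close together at 1 dpi, with 27.1, 25.8 and 28.5 CPM. At 2 dpi they gave 17.3, 10.8 and 15.7 CPM, and they stood at 39.4, 25.8, 25.1 and 36.6 CPM at 3 dpi. None of the 2 dpi libraries reached any library of the day before or after. At 4 dpi *Lif* measured 19.8, 24.5 and 12.2 CPM, and at 5 dpi 14.6 CPM. The 6 dpi libraries, with 7.43, 3.92 and 4.38 CPM, were below all others.

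The *Lif* level rose by 1.12 on the log2 scale between 2 and 3 dpi (SE 0.29, edgeR adjusted p = 0.043), the only member called there, where 1.82% of tested genes were called higher and 1.12% lower. That call was close to the threshold and held in 7 of the 16 fits that left out 1 library, with changes between 0.94 and 1.25. Between 4 and 6 dpi *Lif* fell 3.58-fold (log2 -1.84, SE 0.32, adjusted p = 0.021), again as the only member called, while 0.278% of genes were called lower and 0.235% higher. Leaving out 4 dpi replicate 1, 4 dpi replicate 2 or 6 dpi replicate 2 raised its adjusted p to 0.11, 0.16 and 0.18. Between 1 and 6 dpi it fell 5.15-fold (log2 -2.36, SE 0.33, adjusted p = 0.00014), with no overlap.

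*Il11* encodes interleukin-11, and it had its highest level on the first day sampled. The libraries of 1 dpi gave 34.2, 28.2 and 20.5 CPM, those of 2 dpi 18.3, 9.09 and 6.12 CPM, and those of 3 dpi 6.29, 15.2, 10.3 and 9.15 CPM. Every library of 1 dpi was above every later one. At 4 dpi *Il11* stood at 6.69, 7.27 and 2.03 CPM, at 5 dpi at 4.69 CPM and at 6 dpi at 1.16, 4.01 and 4.3 CPM. The libraries of 4 dpi overlapped those of 6 dpi. The 5 dpi library lay within the range of 4 dpi and above all of 6 dpi.

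Between 1 and 6 dpi *Il11* fell 8.78-fold (log2 -3.13, SE 0.54, adjusted p = 0.00089), the largest fitted change among the 10 members in that comparison. It fell also between the first 2 days and the 3 to 5 dpi window in which reparative CFs have been described (log2 -1.46, SE 0.37, adjusted p = 0.019). It was the only member called in the window, where 2.24% of genes were called lower and 5.25% higher. The call was lost without 2 dpi replicate 1 (log2 -1.2, adjusted p = 0.057) and when only the 10 libraries of the Y-linked pattern were fitted (log2 -1.25, adjusted p = 0.087).

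*Clcf1* encodes cardiotrophin-like cytokine factor 1. It measured 27.9, 35.2 and 21 CPM at 1 dpi, 27.7, 14.3 and 17.3 CPM at 2 dpi, and 20.7, 28.3, 12.8 and 21.1 CPM at 3 dpi. These days overlapped. It then stood at 12, 13 and 9.08 CPM at 4 dpi, 13.7 CPM at 5 dpi and 9.75, 6.22 and 11.3 CPM at 6 dpi. The fall between 1 and 6 dpi was 3.08-fold (log2 -1.62, SE 0.34, adjusted p = 0.0041), with no overlap. A share of 13.3% of the last 500 bases of its transcript is common to an overlapping gene model on the same strand, so its counts are less certain than those of the other ligands.

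All 4 ligands thus had a negative fitted change between 1 and 6 dpi, with a median log2 change of -2.18 against 0.03 over all tested genes, and 3 of the 4 were called lower. In that comparison 5.21% of tested genes were called lower and 6.91% higher. The drop of *Lif* from 4 to 6 dpi lay within libraries of 1 sex-linked pattern, because both days had more *Xist*. Between 1 and 6 dpi that pattern differed in 2 of the 3 libraries of 1 dpi. In the third, 1 dpi replicate 1, *Lif*, *Il11* and *Clcf1* measured 27.1, 34.2 and 27.9 CPM, above every library of 6 dpi. That library held both kinds of counts, 84 Y-linked beside 1670 of *Xist*, where those of 6 dpi had at most 10 Y-linked counts. Replicate 2 of 1 dpi held both as well, with 461 *Xist* and 1455 Y-linked counts. Replicate 1 is a single library. Between 1 and 6 dpi the day and the sex-linked pattern cannot be told apart, and the part of the pattern was not tested. All 4 tested cardiomyocyte markers rose between 1 and 6 dpi (median log2 change 2.36). Of 5 mural cell markers, *Rgs5* (log2 1.71, SE 0.39, adjusted p = 0.0072) and *Cspg4* (log2 2.47, SE 0.36, adjusted p = 0.00022) were called higher. *Kcnj8* (log2 -0.29), *Abcc9* (0.41) and *Myh11* (0.43) were not called. The summed fibroblast markers of the days did not overlap. The part of these markers in the result was not tested.

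**Figure D2:**
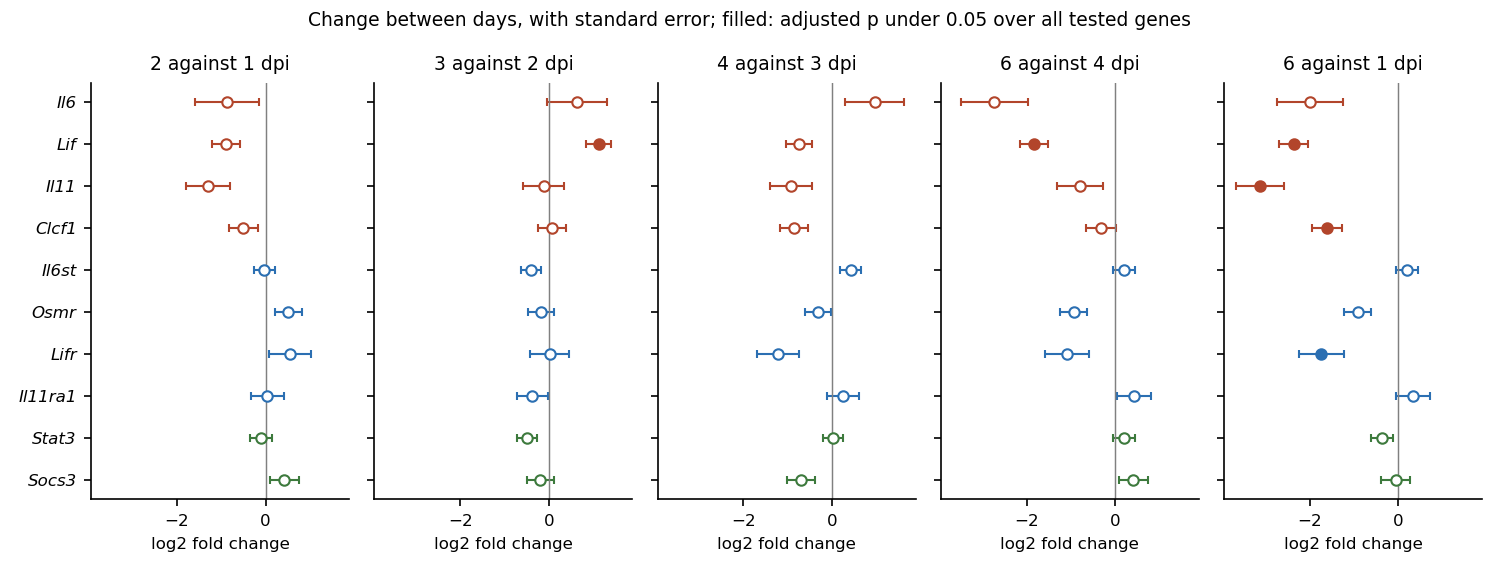
Fitted log2 fold change of each member in 5 comparisons between days, with its standard error (ligands in red, receptors in blue, *Stat3* and *Socs3* in green). Filled points had an edgeR adjusted p under 0.05, namely *Lif* in 3 comparisons and *Il11*, *Clcf1* and *Lifr* in 6 against 1 dpi.

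Of the 4 receptor chains only *Lifr* was called between 1 and 6 dpi. *Il6st* is the gene of the shared chain gp130. Its day means were 7.28 ± 0.26 log2 CPM at 1 dpi, 7.25 ± 0.26 at 2 dpi, 6.87 ± 0.06 at 3 dpi (n = 4), 7.28 ± 0.24 at 4 dpi and 7.45 ± 0.4 at 6 dpi (n = 3 otherwise), and 6.5 in the 5 dpi library. The 3 dpi libraries, at 124, 117, 112 and 115 CPM, lay below all of 2 dpi (125, 179 and 158 CPM) and of 4 dpi (184, 154 and 131 CPM). Neither step passed the test, with log2 changes of -0.4 (SE 0.23, adjusted p = 0.38) and 0.42 (SE 0.23, adjusted p = 0.34). Between 1 and 6 dpi the change was 0.19 (SE 0.24, adjusted p = 0.66).

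*Osmr*, the receptor chain of oncostatin M, was highest at 2 and 3 dpi. Its libraries gave 37, 40.5 and 36.4 CPM at 1 dpi, 61.3, 54.4 and 46.8 CPM at 2 dpi and 46.5, 61.2, 38.4 and 44.3 CPM at 3 dpi. All libraries of 2 dpi were above those of 1 dpi, although the log2 change of 0.51 (SE 0.31) did not pass the test (adjusted p = 0.81). *Osmr* then measured 40.6, 40.9 and 33.9 CPM at 4 dpi, 24.8 CPM at 5 dpi and 13.5, 12.1 and 34.5 CPM at 6 dpi. Replicate 3 of 6 dpi lay inside the range of 4 dpi, while the other two were below every earlier library.

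The log2 change of *Osmr* between 1 and 6 dpi was -0.92 (SE 0.31, edgeR adjusted p = 0.06, DESeq2 adjusted p = 0.039), and -1.57 without 6 dpi replicate 3 (adjusted p = 0.00067). Its call over the whole time course was lost in 6 of the 16 fits without 1 library, the adjusted p ranging from 0.00045 to 0.12. Its ligand, oncostatin M, was barely seen in these cells, *Osm* having no count in 12 libraries and at most 10 in any.

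*Lifr*, the receptor chain of LIF, was the least counted member. It stood at 5.57, 12.4 and 8.7 CPM at 1 dpi, 17.8, 13.7 and 7.85 CPM at 2 dpi and 12.3, 8.53, 21.1 and 11.1 CPM at 3 dpi. The 4 dpi libraries, with 5.78, 5.19 and 6.2 CPM, were below all of 3 dpi. The 5 dpi library gave 6.25 CPM, and those of 6 dpi, at 3.75, 0.597 and 3.61 CPM, were lowest. The value of 0.597 CPM rested on 7 counts. *Lifr* fell 3.34-fold between 1 and 6 dpi (log2 -1.74, SE 0.5, adjusted p = 0.03), and this call was lost without 1 dpi replicate 2 (0.12), 1 dpi replicate 3 (0.06) or 6 dpi replicate 2 (log2 -1.28, adjusted p = 0.11).

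*Il11ra1*, the receptor chain of IL-11, ranged between 108 and 190 CPM in 16 libraries and stood at 29.5 CPM in 3 dpi replicate 2. Its libraries at 6 dpi, with 167, 164 and 190 CPM, were above those of 1 dpi, with 120, 159 and 135 CPM. The log2 change was 0.33 (SE 0.38, adjusted p = 0.61). Of its longest transcript, 46.27% is shared word for word with 2 close copies, *Il11ra2* and *Gm13305*, so its count is uncertain.

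*Stat3*, the transcription factor that carries the signal to the nucleus, had its highest day means on the first 2 days. It measured 123, 116 and 151 CPM at 1 dpi and 118, 133 and 112 CPM at 2 dpi, and 90.5, 105, 76.1 and 72.7 CPM at 3 dpi. The 2 and 3 dpi libraries did not overlap, but the log2 change of -0.49 (SE 0.23) did not pass the test (adjusted p = 0.25). At 4 dpi *Stat3* gave 110, 90.1 and 62.5 CPM, at 5 dpi 97.4 CPM and at 6 dpi 87.6, 122 and 92.8 CPM. Every neighbouring pair of days in the order of its means overlapped.

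*Socs3*, the feedback inhibitor, was called in no comparison by edgeR, at an adjusted p of 0.073 or more, and by DESeq2 over the time course (adjusted p = 0.02) and in the 3 to 5 dpi window (0.024). It gave 327, 605 and 693 CPM at 1 dpi, 746, 805 and 627 CPM at 2 dpi and 591, 997, 563 and 393 CPM at 3 dpi. Libraries of these days overlapped. The 4 dpi libraries, at 399, 439 and 336 CPM, overlapped those of 1 and 3 dpi, and the 5 dpi library, at 221 CPM, was the lowest of all. Those of 6 dpi gave 422, 656 and 482 CPM. Between 1 and 6 dpi the log2 change of *Socs3* was -0.06 (SE 0.33, adjusted p = 0.93).

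From the first 2 days to the window of 3 to 5 dpi the log2 change of *Socs3* was -0.72 (SE 0.24, adjusted p = 0.073). Each day of the window had equal weight, so the 1 library of 5 dpi, the lowest for *Socs3* at 221 CPM, counted as a whole day. Without the 3 dpi libraries the change was -1.12 (adjusted p = 0.012), with that 1 library weighted as much as all of 4 dpi. Among all libraries, 3 dpi replicate 2 held the highest *Socs3* level. Without that replicate *Clcf1*, *Stat3* and *Socs3* were called in the window beside *Il11*, 4 members in all. In that fit 1601 of 13975 tested genes were called, 960 of them higher and 641 lower, against 1050 of 14030 with all libraries.

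No member was called between neighbouring days in the other steps. Between 2 and 1 dpi, 0 of 10 members passed edgeR's test, 2 had an unadjusted p under 0.05, and DESeq2 called 0, where edgeR called 0.157% of all genes higher and 0.0214% lower. Between 4 and 3 dpi the count was again 0 by both tools, with 4 members at an unadjusted p under 0.05, and 1.63% of genes were called higher and 1.08% lower. The direction of *Il6* at this step, a log2 change of 0.96 (SE 0.66, adjusted p = 0.48), was opposite to those of *Lif* (-0.75, SE 0.29, adjusted p = 0.17), *Il11* (-0.92, SE 0.47, adjusted p = 0.32) and *Clcf1* (-0.86, SE 0.31, adjusted p = 0.15).

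**Figure D3:**
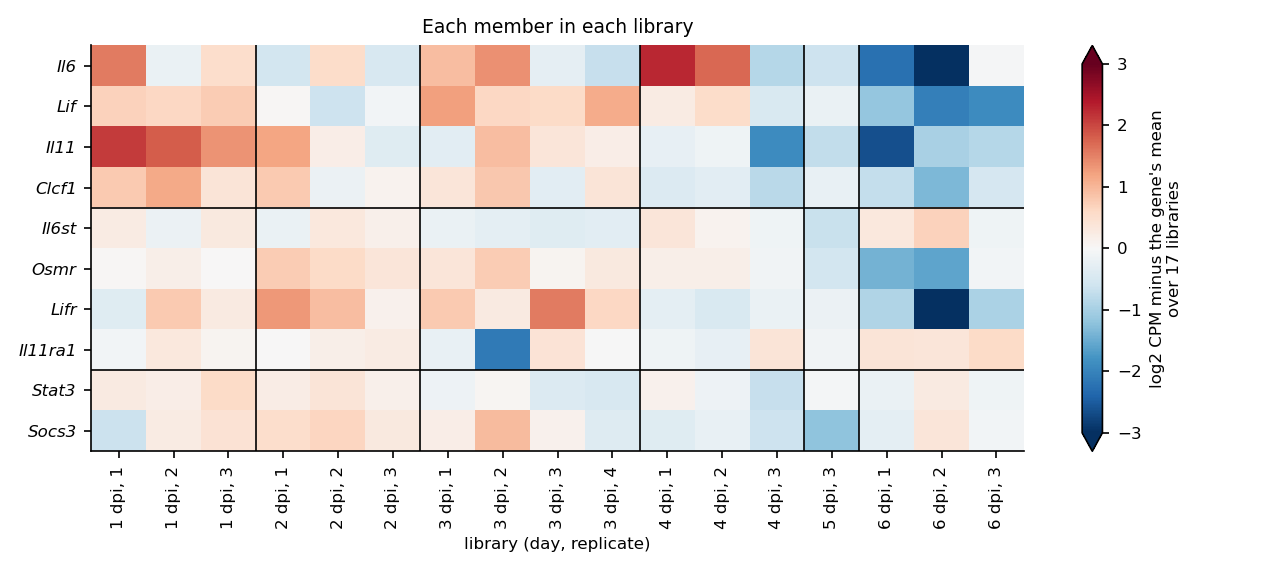
Each member (rows) in each library (columns), as log2 CPM minus the mean of that gene over the 17 libraries, with the colour scale ending at -3 and 3. The ligand rows are mostly above their mean at 1 dpi and below it at 6 dpi, and single libraries stand out for *Il6* (4 dpi replicates 1 and 2), *Il11ra1* (3 dpi replicate 2) and *Lifr* (6 dpi replicate 2).

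Over the 17 libraries, which share the order of days and their depths, the ligand pairs had Pearson correlations of log2 CPM between 0.47 (*Il6* and *Clcf1*) and 0.82 (*Il11* and *Clcf1*). *Osmr* and *Lifr* correlated at 0.78, and *Socs3* with *Il6* at 0.04 and with *Lif* at 0.02. Among 8919 genes with a mean of at least 100 counts, the pattern most like *Lif* was that of *Ipo5* (Pearson r = 0.95), then *Cxcl5* (0.915), *Prelid3b* (0.911) and *Nup205* (0.911). *Cxcl5* is a neutrophil-attracting chemokine. *Il6* was most like *Ppp2r1b* (0.908), *Psma1* (0.879), *Mrpl50* (0.871) and *Braf* (0.864). *Il11* was most like *Prg4* (0.902), *Hmga1* (0.893), *Baz1a* (0.893) and *Hmga1b* (0.891), where *Hmga1b* is a close copy of *Hmga1* and may share its reads. For *Osmr* the list was *Tnpo1* (0.935), *Ifi204* (0.922), *Adam9* (0.904) and *Zfand5* (0.896), and for *Socs3* it was *Pnp* (0.885), *Slco3a1* (0.856), *Gadd45g* (0.827) and *Slc43a3* (0.823).

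The rest of the pathway was read from gene lists. Among the other ligands, *Ctf1*, cardiotrophin 1, had between 10 and 72 counts and an adjusted p of 0.5 over the time course. *Cntf*, *Ctf2*, *Il27*, *Il31* and *Ebi3* had at most 5 counts in any library.

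Of 5 other receptors, 2 were called over the time course, where 15.0% of all tested genes were. Both were called lower at 6 than at 1 dpi, where 5.21% of genes were called lower and 6.91% higher. *Il6ra*, the chain that binds IL-6 itself, fell by 1.63 on the log2 scale (SE 0.44, adjusted p = 0.022). It dropped by 1.97 between 3 and 4 dpi (SE 0.44, adjusted p = 0.018), from 15.3, 22.1, 24.5 and 15.9 CPM to 4.55, 4.16 and 6.3 CPM, with no overlap. The sex-linked pattern changed in all libraries at this step, so its part in the drop cannot be told apart from that of the day. *Il27ra* fell by 1.52 (SE 0.38, adjusted p = 0.013) between 1 and 6 dpi.

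Among the other kinases and STATs, *Stat2* was called over the time course (adjusted p = 0.034). Its log2 change between 1 and 6 dpi was 0.66 (SE 0.26, adjusted p = 0.11), against -0.37 for *Stat3*.

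The 13 other brakes on the pathway include the remaining SOCS genes, phosphatases and PIAS genes. Of these, 3 were called over the time course, where 15.0% of all tested genes were. Between 1 and 6 dpi 1 was called lower, *Socs5* (log2 -1.25, SE 0.35, adjusted p = 0.026), where 5.21% of genes were called lower and 6.91% higher. *Ptpn11*, a phosphatase that docks on gp130, was called over the time course (adjusted p = 0.0038), with a log2 change of -0.58 (SE 0.22, adjusted p = 0.087) between 1 and 6 dpi. *Socs1* was called as well (adjusted p = 0.028), with 0.55 (SE 0.3, adjusted p = 0.25). The third, *Ptpn6*, is a phosphatase of blood cells and had at most 56 counts, with its highest values in 3 dpi replicates 3 and 4, where the macrophage and leukocyte markers were highest too.

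Of 20 STAT3 target genes, 9 were called over the time course, where 15.0% of all tested genes were. Between 1 and 6 dpi 7 passed the test, each of them lower at 6 dpi, where 5.21% of genes were called lower and 6.91% higher. The median log2 change of the 20 genes was -0.64 against 0.03 for all genes. *Lcn2*, an iron-binding acute phase protein, fell 8.71-fold (log2 -3.12, SE 0.67, adjusted p = 0.0052). *Myc*, a growth regulator, fell 2.65-fold (log2 -1.41, SE 0.25, adjusted p = 0.0011), and *Cebpb*, a transcription factor of the acute phase, fell 2.23-fold (log2 -1.16, SE 0.25, adjusted p = 0.0052). *Hp*, haptoglobin, was called over the time course (adjusted p = 0.024) and had a log2 change of 0.92 between 1 and 6 dpi (SE 0.61, adjusted p = 0.34). It was higher in the 3 to 5 dpi window than on the first 2 days (log2 2.1, SE 0.44, adjusted p = 0.0043). Several of these genes also answer to other inflammatory signals.

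**Figure D4:**
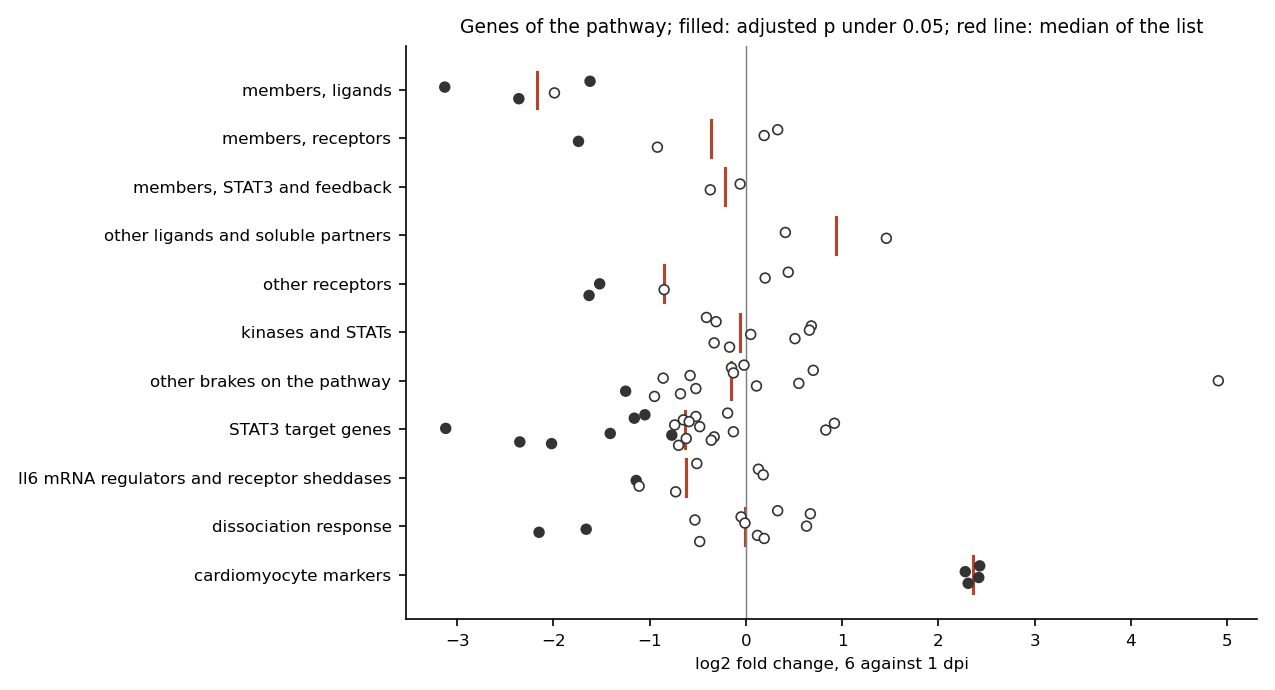
Log2 fold change between 6 and 1 dpi of each tested gene (points), by list, with the median of the list as a red line and filled points for an edgeR adjusted p under 0.05. Of the lists of the pathway, the 4 ligands have the lowest median (-2.18), the 20 STAT3 target genes have 7 filled points below 0, and the 4 cardiomyocyte markers are above 0.

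Of 6 regulators of *Il6* mRNA and sheddases of its receptor, 0 were called over the time course, where 15.0% of all tested genes were. Between 1 and 6 dpi 4 had a negative and 2 a positive log2 change. Only *Nfkbiz*, which encodes a cofactor of *Il6* transcription, was called, and it was lower at 6 dpi (log2 -1.14, SE 0.33, adjusted p = 0.029). In that comparison 5.21% of genes were called lower and 6.91% higher. The 11 genes of the dissociation response, which rise when tissue is digested, had a median log2 change of -0.01 between 1 and 6 dpi. There 2 were called lower and 0 higher, against the same shares of all genes. Over the time course 3 were called, *Hspa1b*, *Hspa1a* and *Nr4a1*, where 15.0% of all tested genes were. *Nr4a1* (adjusted p = 0.048 over the time course) had a log2 change of -0.48 between 1 and 6 dpi (SE 0.33, adjusted p = 0.35). *Fos* changed by -0.01 (SE 0.29, adjusted p = 0.99), whereas the heat shock genes *Hspa1a* and *Hspa1b* fell by 1.66 (SE 0.45, adjusted p = 0.022) and 2.15 (SE 0.55, adjusted p = 0.016). These last 2 genes are near-identical copies, and their counts may be split between them.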

How the data were processed

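Sorted CFs of 17 libraries were analysed. Reads were split by bcl2fastq (1.2.4), mapped by STAR on mm10 and assigned to Ensembl genes of GRCm38 by featureCounts, all by the authors. The deposited values are raw counts per gene, with no normalization, and no collapsing of PCR duplicates or molecular identifiers is named. Counts of amplified reads are not independent molecules, so a limit of 3 counts (0.136 to 0.374 CPM) covers counting error only. The study's methods describe the libraries of a population as biological replicates, and p-values measure the spread between libraries.

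Symbols were found for 30934 of 31053 gene IDs. The 14030 genes that reached 10 counts in 3 or more libraries were fitted with edgeR (4.0.16, R 4.3.3) with TMM factors and day as a factor over all libraries, by quasi-likelihood tests and Benjamini-Hochberg adjustment. Standard errors are the absolute log2 change divided by the square root of F. Log2 CPM used a prior count of 2. The procedure was tested on simulated data. DESeq2 (1.42.0), other scalings, filters, spreads and library sets were alternatives, and each library was left out in turn, except the 1 of 5 dpi. A fit with the 5 dpi library takes its spread from the other days. In the 3 to 5 dpi window each day has equal weight, so this 1 library counts as much as all of 3 dpi or all of 4 dpi.

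The members and gene lists were chosen with earlier results of these data known. Besides the 10 members, a list contributed up to 4 names, those with the largest change between 1 and 6 dpi among the genes called over the time course, and for *Il6*, *Lif*, *Il11*, *Osmr* and *Socs3* the 4 genes of highest Pearson r. *Fos*, *Socs5* and *Nfkbiz*, as well as the genes with few counts, were named after their values were seen. Overlaps and shared words of 50 bases were taken from GENCODE vM21 on GRCm38, the same build in another release. Protein sequences were not used here. Some results are not reported here.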

Additional observations from a re-analysis of the deposited data

How the results depend on the processing

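Of 1703 values of single members under the alternatives, 1612 had the same direction and the same call, 29 lost a call, 28 gained one and 34 changed direction, none of the last being a called value. *Lif*, *Il11* and *Clcf1* between 1 and 6 dpi, and *Lif*, *Il11*, *Clcf1* and *Lifr* over the time course, kept their calls in all 16 fits that left out 1 library. The number of members called changed as follows; the cause was not tested except where stated. DESeq2 called 2 members between 4 and 6 dpi, 2 in the window of 3 to 5 dpi, 6 (against 5) over the time course and 5 (against 4) between 1 and 6 dpi. With every gene of at least 1 count, 2 were called between 3 and 4 dpi, 3 between 4 and 6 dpi, 2 in the window, 7 over the time course and 6 between 1 and 6 dpi. In that fit the prior degrees of freedom were infinite, against 8.8 otherwise, and the spread used for *Il6* was that of the trend, 0.822 instead of 4.81. Fitting each pair of days by itself, 0 were called between 2 and 3 dpi and 0 between 4 and 6 dpi. The same fit of 1 and 6 dpi called 3, *Lifr* having lost its call (adjusted p = 0.079). The window gave 2 without the 3 dpi libraries and 0 in the libraries of the Y-linked pattern.

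With the replicate number as a block, 0 members were called between 2 and 3 dpi and 0 in the window, and *Osmr* lost its call over the time course (adjusted p = 0.072). Deviations from the day means in same-numbered libraries of different days had a mean r of 0.011 over 30 pairs, from -0.108 to 0.2. Libraries of other numbers had a mean r of -0.005 over 72 pairs, from -0.259 to 0.148. These means are over all genes and do not decide whether the numbers pair the libraries. The counts of all genes called fell under the block from 412 to 174 between 2 and 3 dpi, from 380 to 243 between 3 and 4 dpi and from 72 to 28 between 4 and 6 dpi. Leaving out 1 library gave 0 to 1 members between 2 and 3 dpi, 0 to 3 between 4 and 6 dpi and 0 to 4 in the window.

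DESeq2 called 3757 against 2099 genes over the time course, 104 against 25 between 1 and 2 dpi, 1033 against 412 and 857 against 380 in the next steps, and 759 against 72 between 4 and 6 dpi. With no filter the same counts were 3729, 153, 980, 866 and 882. Requiring 10 counts in every library, which leaves *Lifr* untested and 4 members called over the time course and 3 between 1 and 6 dpi, gave 10 genes between 1 and 2 dpi and 140 between 4 and 6 dpi. Pairs of days fitted by themselves gave 63, 252, 125 and 14 for the 4 steps. Over the time course 3466 genes were called without 3 dpi replicate 2.

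For each member, the range of day means changed by less than the SD within days under both other scalings. With raw library sizes the highest day mean of *Il6st* was at 1 dpi instead of 6 dpi. Changes of direction lay near 0. With upper-quartile scaling the change was 0 for *Il6st* between 1 and 2 dpi and 0 for *Lifr* between 2 and 3 dpi. *Stat3* between 3 and 4 dpi was -0.01 with no filter and -0.05 with the block. In the window *Il6* was -0.09 in the libraries of the Y-linked pattern and *Lif* -0.29 without the 3 dpi libraries. Without 1 library each, the ranges between 1 and 2 dpi were -0.17 to 0.1 for *Il6st*, -0.05 to 0.15 for *Il11ra1* and -0.18 to 0.02 for *Stat3*. Between 2 and 3 dpi they were -0.42 to 0.41 for *Il11*, -0.13 to 0.37 for *Clcf1* and -0.32 to 0.29 for *Lifr*, and between 3 and 4 dpi -0.07 to 0.55 for *Il11ra1* and -0.17 to 0.2 for *Stat3*. *Il6st* ranged from -0.02 to 0.38 between 4 and 6 dpi and from -0.03 to 0.37 between 1 and 6 dpi, where *Socs3* ranged from -0.33 to 0.15. In the window *Il6* ranged from -0.06 to 0.41 and *Lif* from -0.04 to 0.11. *Lifr*, at 7 to 333 counts, and *Il11*, at 18 to 683, were the members with the fewest counts.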
